A study of Mus musculus with 2 samples.

Results

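The genes described here were 38 genes of DNA replication, chosen by name from the 32285 genes of the deposited count matrix and followed in sorted mouse microglia, inside and outside dividing cells. The mice were heterozygous for Cx3cr1CreERT2(Litt), a knock-in that places the tamoxifen-activated recombinase CreERT2 at the Cx3cr1 locus, which is active in microglia and other myeloid cells. All mice carried this allele, were 12 weeks old by the labels and received either oil or tamoxifen (TAM), the latter for 4 weeks. Cells gated CD11b+ CD45+ Ly6G- CD206- from perfused whole brains were pooled in 1 droplet run and told apart by 10 hashtag antibodies, 5 for oil and 5 for TAM. Whether a hashtag stands for 1 mouse is not stated, and the p-values therefore rest on the spread among hashtags. No group without the knock-in allele was analysed here.

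The gene expression and hashtag libraries shared the same 9975 cell barcodes, with a median of 4974 gene UMIs (unique molecular identifiers, each standing for 1 captured RNA molecule). Of 7903 filtered singlets, 7537 fell in clusters named microglia-like, 3740 oil and 3797 TAM. Each hashtag held 586 to 903 of these cells and 2957545 to 4795880 UMIs. The 14 microglial markers were all detected in the dividing cells, in a median of 100% of them. Their sum was lower there, at 24204 CPM against 35313 CPM outside. In dividing cells 5 of 7 monocyte markers, 4 of 5 neutrophil markers and 6 of 7 markers of CNS-associated macrophages had no UMI. The summed monocyte markers, from Plac8 and Itga4 in dividing cells, were higher there, at 48.4 CPM against 10.5 CPM outside, and so were the macrophage markers, from Mrc1 in dividing cells, at 62.9 CPM against 9.51 CPM. Over all microglia-like cells of a hashtag the monocyte sum was 8.18 to 12.3 CPM in oil and 4.73 to 17.3 CPM in TAM and the macrophage sum 3.60 to 13.9 and 6.66 to 22.0 CPM, and their part in the results was not tested. Immediate early genes such as Fos and Egr1 moved with the treatment: the mean log2 CPM (counts scaled to a common library size of 1000000) of 23 of them ran from 5.27 to 7.05 in the oil hashtags and from 4.20 to 5.20 in the TAM hashtags.

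Replication starts where origins loaded in G1 with the MCM helicase (Mcm2 to Mcm7, loaded by Cdc6 and Cdt1 and held back by geminin, the product of Gmnn) are activated by Cdc45, the GINS complex and Mcm10. DNA polymerases then copy the strands behind the fork while the sliding clamp PCNA, set in place by replication factor C, holds them and their partners on DNA, and nucleotide-making enzymes such as ribonucleotide reductase supply the building blocks. Many of these genes are transcribed by E2F factors at the entry to S phase, and several, PCNA among them, also serve DNA repair outside division. Adult microglia are long-lived and renew themselves by occasional division.

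Promoter windows of 31 of the 38 members were found among RefSeq windows of build GRCm38.p6, the build named for these files (mm10). Each window ran from 250 bases before to 50 bases after a transcription start. The windows were searched on both strands for the 4 E2F-type words of the form TTNNCGC in which each N is C or G, which can overlap one another. At least 1 of them was in 24 of 38 member windows (63.2%), against 9.57% of all 32851 windows. The pentamer CCAAT was in 60.5% of member windows and 37.4% of all windows, and TTTGAA, a word of the cell cycle homology region type, was in 10.5% of member windows and 17.9% of all. The E2F-type words are rich in G and C, base composition was not matched, and a match describes letters only. The promoters of 5 members are shown for the members on which the results turn: Rrm2 and Pclaf, whose RNA lay mostly in dividing cells, Mcm5, with 3 matches, and Tk1 and Pcna, whose windows held none. Capitals mark the E2F-type words in the 250 bases before the start, and the last 5 capitals of Pclaf begin a word that runs past it. They lie at chr12:24708004-24708253 (plus strand), chr9:65890073-65890322 (plus strand), chr8:75109259-75109508 (plus strand), chr11:117826015-117826264 (minus strand) and chr2:132253181-132253430 (minus strand).
Rrm2: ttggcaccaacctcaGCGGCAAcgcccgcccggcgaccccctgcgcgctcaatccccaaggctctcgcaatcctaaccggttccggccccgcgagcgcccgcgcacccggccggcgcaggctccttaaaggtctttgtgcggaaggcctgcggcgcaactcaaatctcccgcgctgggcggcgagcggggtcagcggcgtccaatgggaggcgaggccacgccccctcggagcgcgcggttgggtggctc
Pclaf: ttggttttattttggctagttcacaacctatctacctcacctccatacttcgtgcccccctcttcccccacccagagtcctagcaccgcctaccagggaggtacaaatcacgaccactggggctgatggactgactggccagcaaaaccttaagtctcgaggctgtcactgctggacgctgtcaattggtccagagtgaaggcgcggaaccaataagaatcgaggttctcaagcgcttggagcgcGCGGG
Mcm5: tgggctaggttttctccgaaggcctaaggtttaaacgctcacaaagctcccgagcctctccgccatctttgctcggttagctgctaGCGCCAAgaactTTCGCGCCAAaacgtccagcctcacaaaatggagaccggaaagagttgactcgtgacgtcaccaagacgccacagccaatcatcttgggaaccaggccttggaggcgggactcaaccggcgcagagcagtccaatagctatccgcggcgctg
Tk1: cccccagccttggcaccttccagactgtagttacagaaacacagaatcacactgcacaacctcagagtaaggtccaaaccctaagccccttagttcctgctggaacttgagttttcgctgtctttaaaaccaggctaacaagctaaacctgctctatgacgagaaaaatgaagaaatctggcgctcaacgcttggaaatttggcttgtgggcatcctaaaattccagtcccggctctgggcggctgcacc
Pcna: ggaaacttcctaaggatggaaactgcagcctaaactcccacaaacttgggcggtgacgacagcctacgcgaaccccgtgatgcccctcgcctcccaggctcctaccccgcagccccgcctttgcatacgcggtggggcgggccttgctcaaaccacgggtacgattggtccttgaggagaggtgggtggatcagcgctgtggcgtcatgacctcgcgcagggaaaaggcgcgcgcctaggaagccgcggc

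Dividing cells were defined by summed UMIs of Mki67 and Top2a, neither of them a member, of at least 3. They numbered 49, or 0.650% of the microglia-like cells and 1.06% of their UMIs. They held 1752 of the 17804 member UMIs, 9.84% (exact binomial interval 9.41 to 10.3, covering counting error only, as do all intervals here). The members together reached 4242 CPM in dividing cells and 417 CPM outside them. Dividing cells were deeper, with a median of 8376 UMIs against 4991, and held a median of 20 different members against 2. After thinning every cell to 3000 UMIs these medians were 9 in 47 dividing cells and 1 in 7178 others, with 2 and 310 shallower cells left out.

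The members differed widely in how far their RNA was held by dividing cells. Rrm2, the regulatory subunit of ribonucleotide reductase, stood at one end: all 63 of its UMIs were in dividing cells, and 0 of 7488 other cells had one, which allows a share of cells with a UMI of up to 0.0401% (3 counts of the total) and sets no limit on cells with undetected Rrm2 RNA. Mcm10, which helps to activate the helicase, had 78.6% of 28 UMIs in dividing cells (59.0 to 91.7). Pclaf, which encodes a PCNA-binding factor, had 63.6% of 154 UMIs there (55.5 to 71.2), and Uhrf1, which recruits the maintenance methyltransferase to new DNA, 50.6% of 81. Between 25% and 50% lay Cdc6, Tk1, Cdc45, Pole, Chaf1a and Prim1. At the other end 15 of the 38 members had under 10% of their UMIs in dividing cells. Helb, a helicase of the replication stress response, had 2.83% of 601 there, and Rfc2, a clamp loader subunit, 3.65% of 1453. With all hashtags pooled, each member was nevertheless more abundant in CPM inside dividing cells than outside. The ratio ran from 2.71 for Helb to 342 for Mcm10. Rrm2, with no UMI outside, is not part of that range. Hashtag by hashtag, a member was higher inside in 4 to 9 of the 10. Mcm2 and Mcm7, at 4 of 10 each, had 0 UMIs in oil dividing cells. The exact interval there reached up to 51.6 CPM for each, above their oil hashtag means outside of 2.20 and 10.2 CPM. With so few UMIs, these counts of 0 cannot show whether either gene was lower in oil dividing cells than outside. E2F-type words were found toward both ends of this order, in windows of Rrm2, Pclaf and Uhrf1 and also of Mcm3, and were not found in those of Mcm10, Tk1, Pcna or Helb.

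**Figure D1:**
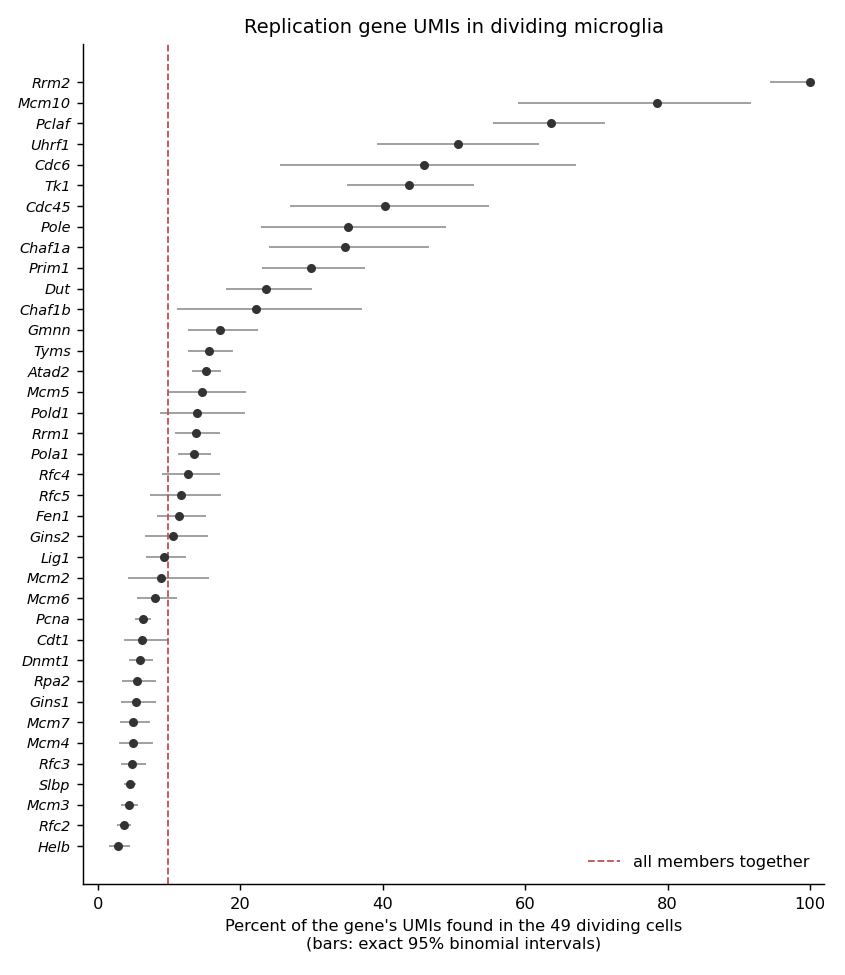
For each of the 38 members, the point gives the percent of its UMIs in the 49 dividing cells and the bar the exact 95% binomial interval; the dashed line marks 9.84%, the value for all members together. Rrm2 sits at 100% and Helb at 2.83%.

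By role, the nucleotide supply genes (Tyms, Rrm1, Rrm2, Tk1, Dut) had the largest share of their summed UMIs in dividing cells, 22.5% of 1403. The polymerase and primase genes followed with 16.7% of 1242 and the helicase activation genes with 12.8% of 663. The share was 10.3% of 800 for the Okazaki fragment genes, 8.97% of 4814 for the chromatin and histone supply genes, 7.63% of 4957 for the clamp and clamp loader genes and 7.04% of 3324 for the licensing genes. These sums are led by a few genes, and within a role the members spread: in licensing, Mcm3 had 4.34% of its UMIs in dividing cells and Cdc6 45.8%. The ribonucleotide reductase subunits spread as well, with 100% for Rrm2 and 13.8% of 471 UMIs for Rrm1, while Rrm2b, the alternative small subunit and no member, had 0.420% of 1668.

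Members with much RNA outside division were seen in many cells. Slbp, which binds the stem-loop of histone mRNA, had a UMI in 26.2% of the 7488 cells outside the gate, Pcna in 18.8%, Rfc2 in 16.5%, Mcm3 in 14.1% and Atad2, a chromatin-bound ATPase, in 11.3%. Tk1 was seen in 0.868% of the same cells and Pclaf in 0.721%, and Rrm2 in none. No cell type that should lack these genes was at hand to give a background share, and Rrm2, with 63 UMIs in dividing cells and 0 outside, gave the lowest share of the 38.

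Of 44 other replication genes, listed apart from the members, several were also spread over cells outside the gate: Orc4, an origin recognition subunit, had 0.791% of 2656 UMIs in dividing cells and Samhd1, which breaks down deoxynucleotides, 0.308% of 2919. Clspn, the checkpoint adaptor claspin, had 72.6% of 157 UMIs there and Ticrr, which helps Cdc45 to load, 61.9% of 21.

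Dividing cells were more frequent in the TAM hashtags. Their numbers were 1, 2, 1, 1 and 3 in Oil1 to Oil5 and 2, 5, 12, 13 and 9 in TAM1 to TAM5, with TAM1 inside the oil range as a share and the other TAM hashtags above it. By Xist and Y-linked genes Oil1, Oil2, TAM1 and TAM2 were male and the others female. The male shares were 0.147% and 0.321% in oil and 0.242% and 0.853% in TAM. Female shares were 0.114% to 0.375% in oil and 1.23% to 1.73% in TAM. A difference between the sexes in these shares was not tested. The mean share was 0.218% ± 0.121 of cells in oil and 1.08% ± 0.561 in TAM (SD, n = 5 each; exact two-sided permutation test, p = 0.0238, adjusted p = 0.0476 over 2 shares, smallest possible p 0.00794). With 1 hashtag left out the adjusted p of this permutation test was 0.0317 without TAM1 and 0.0635 to 0.0952 without any other single hashtag, and the difference stayed between 0.697 and 1.07 percentage points. A further 11 barcodes past the gate were hashtag doublets and were left out.

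In the summed UMIs of all microglia-like cells, 3 members rose with TAM and 1 fell. Pclaf, Tk1 and Gmnn were higher and Pcna was lower by edgeR's quasi-likelihood test at an adjusted p of 0.05. A filter on low counts passed 30 of the 38 members, leaving out Mcm10, Rrm2, Cdc6, Cdc45, Pole, Uhrf1, Chaf1a and Chaf1b. Across all 11171 genes tested 1.66% were called higher and 2.85% lower. The median log2 change of the 30 members was 0.22, with 25 above 0 and 5 below, against -5.76e-05 over all genes, 5581 of which were above 0. Without adjustment 12 members were higher and 1 lower at p under 0.05. In such sums more cells with a gene and more RNA per cell cannot be told apart.

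Gmnn, which encodes the licensing inhibitor geminin and lies at chr13:24751845-24761923 on the minus strand, measured 4.59, 3.14, 5.17, 4.45 and 4.99 CPM in Oil1 to Oil5 and 8.71, 6.77, 6.81, 10.3 and 7.15 CPM in TAM1 to TAM5. Every TAM hashtag was above every oil hashtag. The log2 fold change was 0.81 ± 0.19 (SE; edgeR adjusted p = 0.0228). It missed the threshold without Oil2 or without TAM4 (adjusted p 0.0584 and 0.0737).

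Pclaf, at chr9:65890237-65903266 on the plus strand, measured 2.01, 3.45, 2.70, 1.31 and 0.999 CPM in the oil hashtags and 2.12, 7.11, 6.60, 8.27 and 5.30 CPM in the TAM hashtags. TAM1 fell among the oil values and the other 4 TAM hashtags lay above them. The log2 fold change was 1.48 ± 0.36 (edgeR adjusted p = 0.0275). The call rested on few UMIs, 39 in oil and 115 in TAM, and was lost in 8 of the 10 fits that each left out 1 hashtag (all but those without Oil2 or TAM1), with adjusted p from 0.0502 to 0.0852.

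Tk1, the cytosolic thymidine kinase of the salvage pathway, lies at chr11:117815526-117826092 on the minus strand, where its exons overlap those of Afmid on the other strand. It measured 1.43, 2.51, 1.57, 2.88 and 1.997 CPM in oil and 2.59, 3.73, 4.95, 6.02 and 5.03 CPM in TAM, with only Oil4 reaching into the TAM range. The log2 fold change was 1.11 ± 0.29 (edgeR adjusted p = 0.0361), and DESeq2 gave an adjusted p of 0.0549. The call was lost in 7 of the 10 fits that each left out 1 hashtag (all but those without Oil4, TAM1 or TAM2), with adjusted p from 0.0576 to 0.108.

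None of these 3 rises was called by edgeR once the level of immediate early genes or the deposited order of the hashtags entered as a covariate, or once Oil1 to Oil3 or cluster 1, led by immediate early genes, were left out. Over these 4 fits the log2 change was 0.65 to 0.84 for Gmnn (adjusted p 0.0730 to 0.664), 1.16 to 2.32 for Pclaf (adjusted p 0.118 to 0.691) and 0.14 to 0.88 for Tk1 (adjusted p 0.272 to 0.981). Neither covariate overlaps between the treatments, and the order runs 1 to 5 for oil and 6 to 10 for TAM. The fits with a covariate therefore cannot tell it from the treatment. Dividing cells held 63.6% of Pclaf, 43.8% of Tk1 and 17.2% of Gmnn UMIs.

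Among the licensing genes Mcm5 came next to the threshold. It measured 1.997 to 3.44 CPM in oil with a median of 3.14 and 2.71 to 8.47 CPM in TAM with a median of 7.27, a log2 change of 1.06 ± 0.30 (edgeR adjusted p = 0.0524), with TAM1 and TAM2 near the oil values. Mcm3 and Mcm7 had the most UMIs of this role. Mcm3 measured 31.3 ± 2.02 CPM in oil and 34.8 ± 3.29 in TAM (SD, n = 5), and Mcm7 10.2 ± 2.39 and 13.2 ± 2.18, and neither passed (edgeR adjusted p = 0.303 and 0.248). Mcm2 measured 2.20 ± 0.519 CPM in oil and 3.55 ± 0.783 in TAM, and Mcm4, Mcm6 and Cdt1 had log2 changes of 0.08, 0.28 and 0.04. Cdc6 had 24 UMIs in all and was not tested.

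In helicase activation, Gins1 and Gins2, both subunits of GINS, were the members tested. Gins1 measured 10.3 ± 2.07 CPM in oil and 9.38 ± 1.64 in TAM, and Gins2 4.15 ± 0.852 and 6.74 ± 1.79 (edgeR adjusted p = 0.748 and 0.0983). Of the polymerase genes, Pola1, the catalytic subunit of polymerase alpha, measured 20.2 ± 1.75 CPM in oil and 24.6 ± 3.51 in TAM, and Prim1, the primase that lays the RNA primer, 3.38 ± 1.47 and 5.19 ± 1.15 (edgeR adjusted p = 0.141 and 0.167). Pold1, of polymerase delta, had a log2 change of 0.23. Pole, of polymerase epsilon, had 57 UMIs and was not tested. It measured 0.25 to 1.15 CPM in oil and 1.18 to 3.51 CPM in TAM, with no overlap.

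None of the 4 clamp loader genes among the members passed the threshold in all cells or outside dividing cells. Rfc2 measured 36.7 ± 1.34 CPM in oil and 38.2 ± 2.19 in TAM, a log2 change of 0.06 ± 0.07, and Rfc3, Rfc4 and Rfc5 changed by -0.09, 0.19 and -0.02 on the log2 scale. Rpa2, a subunit of the single-strand binding protein, changed by 0.01 ± 0.16. Of the Okazaki fragment genes, the ligase gene Lig1 measured 10.4 ± 1.76 CPM in oil and 12.7 ± 2.14 in TAM, and the flap nuclease gene Fen1 8.76 ± 0.704 and 9.38 ± 1.05. None of these passed the threshold.

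The 4 nucleotide supply genes tested were all above 0, and only Tk1 passed after adjustment. Tyms, thymidylate synthase, measured 12.3 ± 3.21 CPM in oil and 16.0 ± 3.32 in TAM (edgeR adjusted p = 0.253). Rrm1, the large subunit of ribonucleotide reductase, measured 8.99 to 10.98 CPM in oil and 11.06 to 19.33 in TAM with no overlap, a log2 change of 0.49 ± 0.16 that missed the threshold (edgeR adjusted p = 0.0911). Dut, which keeps uracil out of DNA, had a log2 change of 0.83 ± 0.25 (edgeR adjusted p = 0.0722).

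Of the chromatin genes, Slbp measured 67.0 ± 5.03 CPM in oil and 66.3 ± 4.92 in TAM, Atad2 30.7 ± 5.70 and 35.3 ± 5.47, and Dnmt1, the maintenance DNA methyltransferase, 18.4 ± 3.77 and 20.5 ± 2.70. The log2 changes were -0.02, 0.21 and 0.17, none past the threshold. Uhrf1, Chaf1a and Chaf1b, the last 2 of them subunits of chromatin assembly factor 1, had 45 to 81 UMIs each and were not tested. Helb measured 14.5 ± 3.05 CPM in oil and 16.0 ± 2.54 in TAM.

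Pcna, at chr2:132249162-132253314 on the minus strand, was the one member that fell. It measured 66.9, 64.3, 58.0, 59.4 and 37.7 CPM in Oil1 to Oil5 and 41.9, 40.0, 39.8, 38.4 and 33.6 CPM in TAM1 to TAM5. The oil hashtags 1 to 4 lay above every TAM hashtag and Oil5 lay inside the TAM range. The log2 fold change was -0.55 ± 0.12 (edgeR adjusted p = 0.0152), and it missed the threshold without TAM5 (adjusted p = 0.0508). It was -0.07 with the immediate early level as covariate, 0.0555 with the order of the hashtags as covariate and -0.32 without Oil1 to Oil3, none of them called (edgeR adjusted p = 0.941, 0.972 and 0.428). Neither covariate overlaps between the treatments, so the fits with them cannot tell covariate and treatment apart. Pcna and Tyms have pseudogenes in the annotation that are not rows of the matrix, so reads shared with them are uncertain.

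Genes listed with the members for their part in the cell cycle moved in the same fit. Of 39 other replication genes tested 2 rose and 0 fell, Clspn by 1.70 ± 0.44 and Dna2, a nuclease of Okazaki fragments and resection, by 0.82 ± 0.21 on the log2 scale (edgeR adjusted p = 0.0350 for both). Of 14 E2F, Rb family and G1/S genes tested 2 rose, E2f1 by 1.89 ± 0.38 and E2f3 by 0.21 ± 0.05 (edgeR adjusted p = 0.0107 and 0.0394). Of 13 mitosis genes tested 9 rose, Kif23, Cdk1, Top2a and Prc1 by 1.75 to 2.94. The other genes of the 25 listed for mitosis did not pass the filter. It can pass a gene on the counts of 1 treatment alone, so the share that rose does not stand for the whole list. Of 23 immediate early genes 17 fell, Ier2, Ier5, Egr1 and Zfp36 by 0.95 to 3.16. Over all genes tested 1.66% were called higher and 2.85% lower.

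Outside dividing cells the 3 rises were no longer called and the fall of Pcna was larger. In 7488 cells, 28 of the 38 members passed the filter, 0 were called higher by edgeR and 1, Pcna, was called lower, where 1.28% and 2.59% of all 11087 genes were called higher and lower. DESeq2 also called Pcna alone. At an unadjusted p under 0.05, 2 members were higher, Gmnn and Mcm5, and 1 lower. The median log2 change of the 28 members was 0.09, against 0.00133 over all genes, with 17 above 0 and 11 below. Of 37 other replication genes 0 were called by edgeR in either direction (5 higher and 3 lower at an unadjusted p under 0.05). Of 13 E2F, Rb family and G1/S genes tested 1 was still called higher and 0 lower, and of 3 mitosis genes tested 0 were called.

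Pclaf and Tk1, now below the filter, measured 1.43 ± 0.664 and 1.62 ± 1.04 CPM in oil and 1.49 ± 0.470 and 2.14 ± 0.436 CPM in TAM, with overlapping hashtags. Gmnn still separated the hashtags, at 3.16 to 4.60 CPM in oil and 5.07 to 7.80 CPM in TAM, with a log2 change of 0.54 ± 0.19 (edgeR adjusted p = 0.133). Mcm5 measured 2.71 ± 0.445 CPM in oil and 4.92 ± 2.29 CPM in TAM (SD, n = 5), a log2 change of 0.91 ± 0.31 (edgeR adjusted p = 0.119). Whether a change differed between all cells and cells outside the gate was not tested, since the same hashtags enter both.

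**Figure D2:**
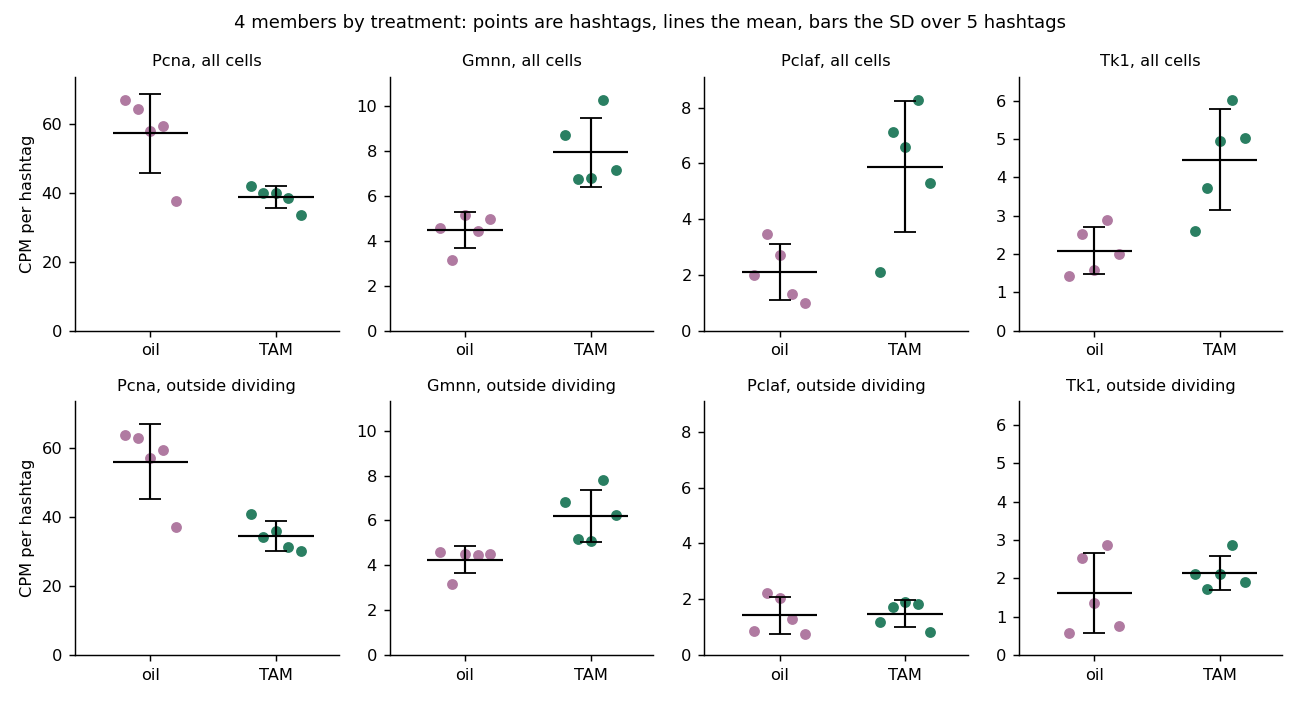
CPM of Pcna, Gmnn, Pclaf and Tk1 in each hashtag, in all microglia-like cells (upper row) and outside dividing cells (lower row), with the mean and SD over 5 oil and 5 TAM hashtags. Pclaf averages 5.88 CPM in TAM with dividing cells and 1.49 CPM without them, while Pcna is lower in TAM in both rows, 38.7 and 34.5 CPM.

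Of the members' summed CPM in each treatment, dividing cells supplied 15.1 CPM in oil and 74.4 CPM in TAM. Cells outside the gate supplied 412.5 and 412.8, or 357.9 and 378.5 with Pcna left out. Within dividing cells the members stood at 4055 CPM in oil (exact Poisson interval 3602 to 4550) and 4281 in TAM (4064 to 4506), from 290 and 1462 UMIs. Only Oil5 among the oil hashtags had 3 or more dividing cells, which is below the minimum set for a test (2 such hashtags in each treatment), and none was run inside dividing cells.

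**Figure D3:**
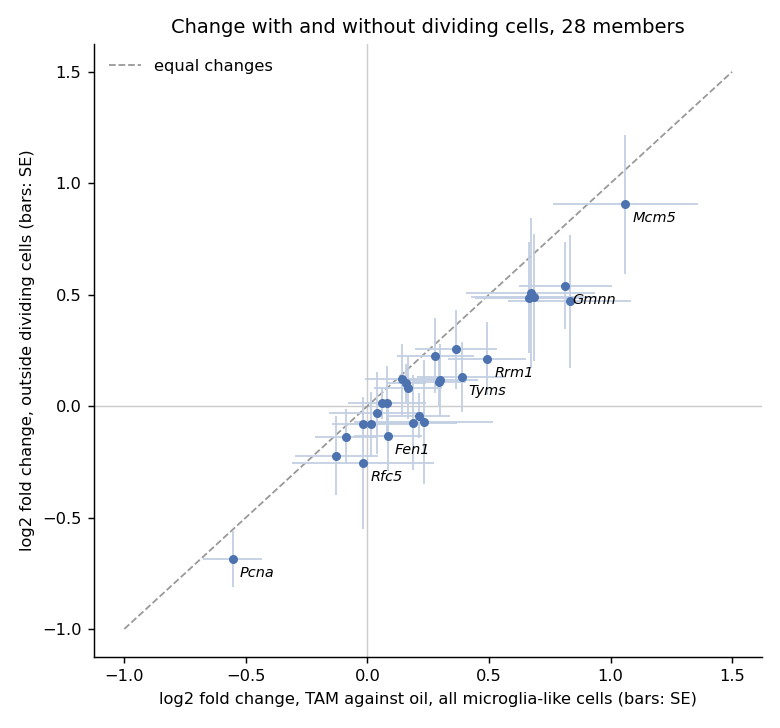
Log2 fold change of TAM against oil for the 28 members tested in both, in all microglia-like cells (x axis) and outside dividing cells (y axis), with SE bars; the dashed line marks equal changes. Pcna lies lowest at -0.55 and -0.69, and Mcm5 is furthest right at 1.06 and 0.91.

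Pcna outside dividing cells measured 63.8, 62.8, 57.2, 59.3 and 37.3 CPM in the oil hashtags and 41.0, 34.3, 35.9, 31.2 and 30.04 CPM in the TAM hashtags. Only TAM1 exceeded the lowest oil value, that of Oil5. The log2 fold change was -0.69 ± 0.13 (edgeR adjusted p = 0.0065), and it passed in each of the 10 fits that left out 1 hashtag (-0.80 to -0.64). It was -0.73 in the male and -0.65 in the female hashtags, with sex read from Xist and Y-linked genes (edgeR adjusted p = 0.0147 and 0.00971). In cells thinned to 3000 UMIs a Pcna UMI was found in 10.2% to 17.6% of cells of an oil hashtag and in 8.15% to 11.7% of those of a TAM hashtag.

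The Pcna difference ran alongside the immediate early genes. Oil5 had both the lowest Pcna and the lowest immediate early level of the oil hashtags, and the oil and TAM ranges of that level did not overlap, so the treatment and that level cannot be told apart in these hashtags. With that level entered as a covariate the log2 change of Pcna outside dividing cells was -0.19 (edgeR adjusted p = 0.781), with the hashtag's place from 1 to 10 in the deposited order as a covariate -0.03 (adjusted p = 0.988), and with the first 3 oil hashtags left out -0.47 (adjusted p = 0.316). The order runs 1 to 5 for oil and 6 to 10 for TAM, so it cannot be told apart from the treatment either. Cluster 1, led by Fos, Fosb and Egr1, held 38.7% of oil and 2.18% of TAM cells outside the gate, and ranged from 66.7% in Oil1 to 10.4% in Oil5. Without cluster 1, an alternative added after the data were seen, Pcna changed by -0.52 (edgeR adjusted p = 0.0289) outside dividing cells and by -0.41 (adjusted p = 0.0800) in all cells.

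In each of clusters 0 to 4 outside the gate the mean of Pcna over hashtags was lower in TAM. In cluster 0 the hashtags averaged 47.9 ± 5.88 CPM in oil and 31.7 ± 6.16 in TAM, and in cluster 2 they averaged 45.2 ± 8.53 and 31.4 ± 2.67 (SD, n = 5). In both clusters Oil5 was the lowest oil hashtag and overlapped the TAM values. Cluster 3, led by Spp1, Lgals3 and Lpl, had the highest Pcna, 95.3 ± 32.1 in oil and 71.5 ± 17.1 in TAM, and cluster 4, led by interferon-response genes, had 67.3 ± 27.1 and 53.4 ± 22.6, with hashtags of the 2 treatments mixed in both. In cluster 7, the division cluster, the means ran the other way, 19.6 ± 34.0 over the 3 oil hashtags with cells there and 32.2 ± 24.6 over the 5 TAM hashtags, from 2 and 15 UMIs. No test was run within clusters.

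**Figure D4:**
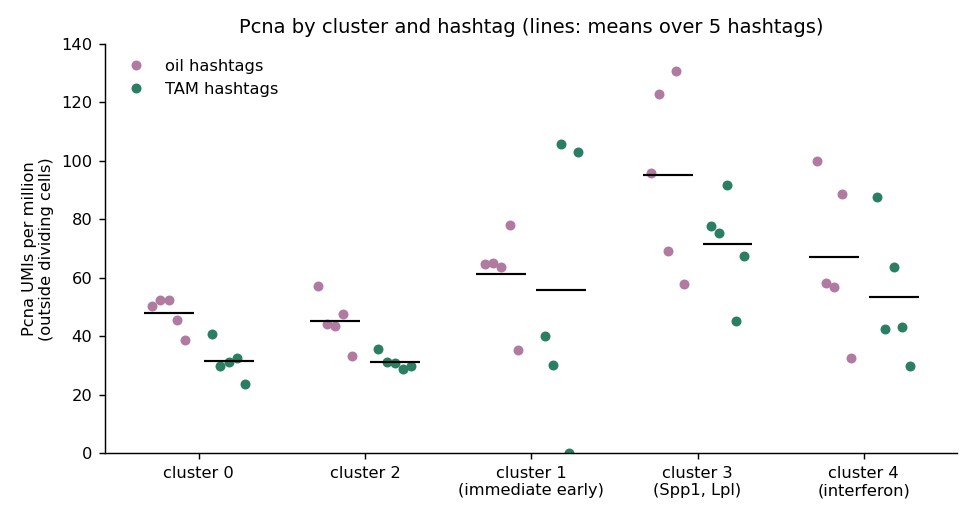
Pcna CPM in cells outside the dividing gate, by cluster (x axis) and hashtag (points), with the mean of 5 hashtags as a line. In clusters 0 and 2 the TAM means of 31.7 and 31.4 lie below the oil means of 47.9 and 45.2; in cluster 1 the TAM hashtags hold 82 cells in all and scatter from 0 to 106.

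Cells outside the gate that held several replication genes at once were counted with 21 members. These were Mcm2 to Mcm7, Mcm10, Gins1, Gins2, Cdc6, Cdt1, Cdc45, Pclaf, Tyms, Rrm2, Tk1, Lig1, Fen1, Uhrf1, Chaf1a and Chaf1b. At least 4 of the 21 were found in 89 cells, 27 oil and 62 TAM, against 34 of the 49 dividing cells. The share was 0.376% to 1.29% of cells in the oil hashtags and 0.812% to 2.92% in the TAM hashtags, with TAM3 and TAM5 at 2.58% and 2.92% above all others. The means were 0.736% ± 0.372 and 1.604% ± 1.05 and did not pass (SD, n = 5; exact permutation test, p = 0.159). After thinning to 3000 UMIs, with the gate applied to the thinned UMIs too, they were 0.198% and 0.799%, and every TAM hashtag was above every oil hashtag (exact permutation p = 0.00794, adjusted p = 0.0159). With the gate kept on all UMIs the thinned means were 0.175% and 0.659% (exact permutation p = 0.0159, adjusted p = 0.0238). Of the 89 cells, 83 had no UMI of Mki67 or Top2a, 41 were in cluster 2 and 2 in the cluster led by Mki67 and Top2a. Their median depth was 6625 UMIs.

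The dividing cells themselves spread widely in their number of members. A grouping made after these values were seen put 16 cells at 0 to 5 different members, 1 at 8 and 32 at 11 to 29. The low group held 4 of the 8 oil and 12 of the 41 TAM dividing cells. Its median depth was 6598 UMIs, against 9031 in the high group. The other 23 mitosis genes stood at 5482 CPM in the low group and 6629 in the high group. By the same count 33 cells outside the gate, 7 oil and 26 TAM, held 11 to 21 members. Of these 33 cells 27 had no Mki67 or Top2a UMI, and the 23 mitosis genes reached 171 CPM (122 to 231) in them, against 35.6 in the remaining cells outside both the gate and the division cluster. No test was run on these groups.

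**Figure D5:**
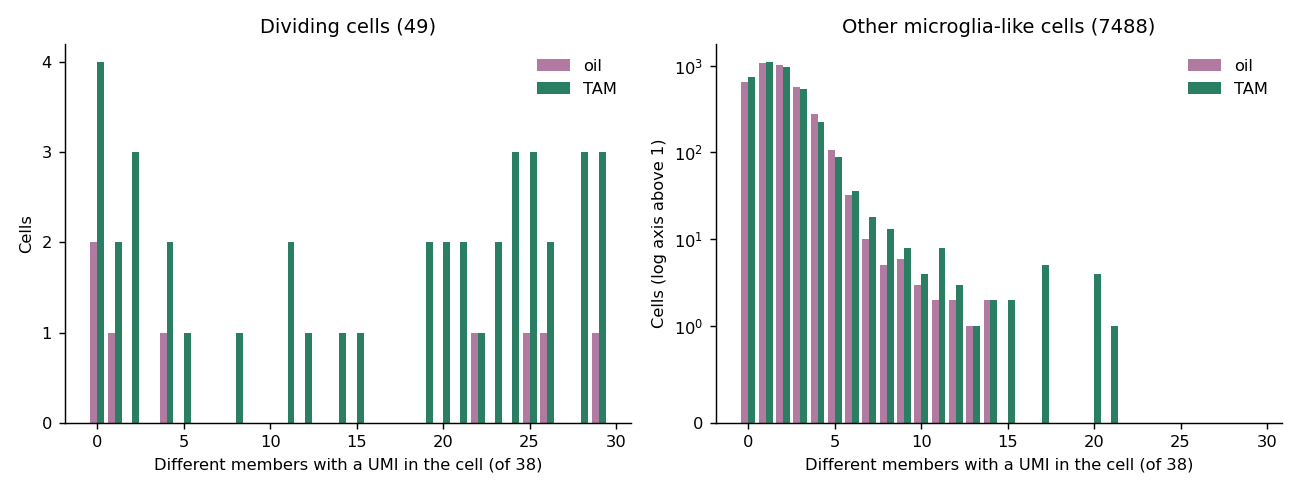
Number of cells (y axis, on a log axis above 1 in the right panel) by the number of different members with a UMI (x axis), for dividing cells on the left and other microglia-like cells on the right, oil and TAM apart. Dividing cells lie either at 5 or fewer or, but for 1 cell, at 11 or more, while other cells reach 21.

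Cdkn1a, which encodes the cell cycle inhibitor p21, was summed over the same groups of cells. It stood at 1118 CPM in dividing cells with 11 or more members and at 557 in those with 5 or fewer. In the 6 of the former with 3 to 5 Mki67 and Top2a UMIs it was 19.0, from 1 UMI (exact Poisson interval 0.480 to 106). The 33 member-rich cells outside the gate had 37.4, from 9 UMIs (17.1 to 71.1). The remaining cells outside both the gate and the division cluster had 31.7 (29.9 to 33.5). In 82 cells of the division cluster outside the gate, which held a median of 1 member, Cdkn1a was at 684. These values were not tested.

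Dividing cells with and without a UMI of Ccnb1, Cdc20 or Plk1, genes of late G2 and mitosis, differed in which members they held. The 20 cells without one had a median of 7056 UMIs and the 29 with one 9317. Lig1 stood at 232 CPM without and 33.2 with these genes, Mcm4 at 98.4 and 14.8, Mcm6 at 134 and 44.3 and Uhrf1 at 169 and 62.8. Rrm2 ran the other way, at 42.2 without and 211 with them, as did Cdc45 at 28.1 and 62.8 and Gins2 at 28.1 and 66.5. Atad2 and Pcna differed less, at 499 and 454 and at 330 and 259. These are counts of 2 to 123 UMIs from few cells and were not tested.

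The test of the interaction of treatment and sex called no member. Of 30 members tested 0 passed in edgeR, where 0.0179% of all 11171 genes did, with 2 male and 3 female hashtags for each treatment. Atad2, Mcm5 and Prim1 were the 3 at an unadjusted p under 0.05. In the female hashtags alone Pclaf changed by 1.96 and in the male hashtags alone by 0.65 on the log2 scale (edgeR adjusted p = 0.00201 and 0.780). The interaction itself was not called for Pclaf (edgeR adjusted p = 0.884), so these 2 fits do not show a difference between the sexes.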

How the data were processed

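The 2 libraries of 1 droplet pool, gene expression and hashtags, were analysed. The deposited matrix holds raw UMI counts per gene and barcode, made by the authors (Cell Ranger 7.0.0, per the file headers) on mm10 per the submitters' processing notes. Whether counting used strand is not given in the sources used here, and exons of 11 members overlap a gene on the other strand. Hashtag names gave the treatment.

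Barcodes were assigned with HTODemux (Seurat 5.3.0, quantile 0.99) into 8055 singlets, 1737 doublets (17.4%) and 183 negatives. Doublets were dropped, and about 196 doublets of 1 hashtag remain by expectation. Cells that reached 500 genes and 1000 UMIs, with no more than 10% of UMIs mitochondrial, were clustered (scanpy 1.11.5, 2000 variable genes, 30 components, 15 neighbours, Leiden resolution 0.5) into 8 clusters. Clusters were named microglia-like from 14 markers, and 366 cells in the other 2 clusters were left out. Of the members 4 were among the variable genes.

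UMIs were summed per hashtag and tested over all genes with edgeR 4.0.16 (TMM, filterByExpr, quasi-likelihood F test, Benjamini-Hochberg threshold 0.05), with DESeq2 1.42.0 as an alternative. CPM per hashtag use TMM library sizes, and CPM of a group of cells or a cluster use plain UMI totals. The SE is the log2 fold change divided by the square root of F. On simulated counts for the comparison of TAM with oil in all microglia-like cells (11171 genes) 189 of 200 genes changed 2-fold were recovered, with 7 false calls. Shares were compared over all 252 regroupings of hashtags. UMIs are not corrected for free RNA.

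Named genes followed a rule: members past the threshold, Pcna, the 2 members of each role with the most UMIs, and up to 4 called genes of each other list. The members, roles, lists and settings were chosen with earlier results of these data known. Mcm5, Mcm10, Rrm2, Uhrf1, the ones below the filter, and Orc4, Samhd1, Ticrr and Rrm2b were singled out after their values were seen. Promoters of Gmnn, Gins1, Gins2, Atad2, Pole, Mcm4 and Rfc2 were not matched. The planned test inside dividing cells was not run, since 1 oil hashtag had enough cells.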

Additional observations from a re-analysis of the deposited data

Results flagged for a closer look

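Among 76 sets of 5 hashtags examined (reported shares and CPM of 18 members, in all cells and outside dividing cells) 5 held a hashtag far from the other 4 of its treatment, by a gap of over Dixon's 95% critical value, where chance gives about 1 in 20.

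All 5 were oil hashtags. Pcna outside dividing cells was 37.3 CPM in Oil5, with the next oil value at 57.2. Gmnn outside dividing cells was 3.16 CPM in Oil2, with the next at 4.44. Prim1 in all cells was 5.96 CPM in Oil2, with the next at 2.92. Rfc2 was 39.0 CPM in Oil1 in all cells, with the next at 36.7, and 38.5 CPM outside dividing cells, with the next at 36.0.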

How the results depend on the processing

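In all microglia-like cells 4 members were called, and 1 to 7 when 1 hashtag was left out, where 258 to 656 of all genes were called. The member count was 8 with no filter on low counts, 7 in the female hashtags alone and 1 in the male. Over all genes these 3 fits called 834 of 20087, 650 of 11274 and 123 of 11066. In edgeR the member count was 0 with the level of immediate early genes as covariate (4 at an unadjusted p under 0.05), with hashtag number as a covariate (1), without Oil1, Oil2 and Oil3 (13), with a leading hashtag of at least 80% (1 of 6 members tested) and without cluster 1 (11). Calls over all genes fell too, from 503 of 11171 in the main fit. In the same order they were 67 and 38 of 11171, 7 of 11600, 87 of 6286 and 223 of 10939. The loss of calls was therefore not particular to the members. DESeq2 called 4 members and 495 of 11171 genes. Pcna reversed, to a log2 change of 0.0555, with hashtag number as a covariate, which cannot be told apart from the treatment.

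Outside dividing cells 1 member was called, and 1 or 2 when 1 hashtag was left out, where 193 to 558 of all genes were called. The edgeR member count was 2 in the female hashtags alone. It was 0 with either covariate (1 at an unadjusted p under 0.05 for each), without Oil1 to Oil3 (3) and with a leading hashtag of at least 80% (1). Over all genes 429 of 11087 were called in the main fit and 509 of 11192 in the female hashtags alone. In the fits with 0 members called they were 83 of 11087 with the immediate early covariate and 39 of 11087 with hashtag number. They were 6 of 11455 without Oil1 to Oil3 and 75 of 6134 with the leading hashtag setting. DESeq2 called 1 member and 430 of 11087 genes. In 20 of 26 settings the member count was unchanged.

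The difference in dividing cells was 0.697 to 1.07 percentage points when 1 hashtag was left out, and 0.824 without Oil1, Oil2 and Oil3, where the test could not pass. It passed with a gate of 2 or 5. For cells with several members outside the gate the difference was 0.540 to 1.07 with 1 hashtag left out. It passed at 2.04 with a leading hashtag of at least 80%, 0.600 after thinning, 0.484 after thinning with the gate on all UMIs (chosen after seeing the data) and 0.459 for at least 6 genes. The 80% setting left 16, 61, 847, 4 and 2 cells outside the gate in Oil1 to Oil5 and 11 to 144 in the TAM hashtags. Such small shares can hardly differ from 0 in hashtags of so few cells, and no conclusion is drawn from that setting. The cause of these shifts was not tested.

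Hashtags with the same number correlated at 0.288, 0.103, 0.00964, 0.0948 and 0.0861, so the numbers were not taken to pair samples, and 4 of the 10 hashtags correlated best with their own number. In both treatments numbers 1 and 2 were male and 3 to 5 female by Xist and Y-linked genes, so number and sex go together. With sex as covariate edgeR called 6 members and 875 of 11171 genes in all cells. Outside dividing cells it called 1 member and 766 of 11087 genes. With the replicate block 6 members were called in all cells and 1 outside dividing cells. Over all genes that block gave 871 of 11171 and 797 of 11087 calls, against 503 and 429 in the main fits. Few UMIs limit Cdc6, Mcm10, Chaf1b, Cdc45, Pole and Rrm2, with 24 to 63 each.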
